A study of Mus musculus with 1600 samples.

Results

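Regulators of skeletal muscle formation were followed through single cells of the mouse limb: Pax3, Pax7, Myf5, Myod1, Myog, Msc, Met and Vgll2. They were chosen by name, as 8 of the 22092 gene symbols in the count table, and each symbol had 1 row. The cells came from limbs labelled hind limb of Scx-GFP transgenic C57BL/6 mouse embryos. The transgene is a reporter of Scx, a transcription factor of tendon progenitors, and no sort of the cells on it is named in the labels. The 3 stages gave 120 E10.5 cells, 160 E12.5 cells and 200 E15.5 cells, captured on the Fluidigm C1 and each made into its own library. The limbs of siblings of 1 litter were combined, so every stage is 1 sample, no difference between stages can be tested, and the intervals below cover counting error only.

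Limb muscle is made by cells that leave the somites and migrate into the limb bud. Pax3 marks these migrating progenitors, and Met, the receptor for hepatocyte growth factor, is needed for them to leave the somite. Pax7 marks the progenitors that follow, Myf5 and Myod1 commit cells to the muscle fate, and Myog starts their differentiation into fibres. Msc, a basic helix-loop-helix repressor, and Vgll2, a cofactor of TEAD transcription factors, are also made by embryonic muscle cells. Pax3 has further roles in neural crest cells and melanoblasts, and Met is also a receptor of epithelia.

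Cells with fewer than 1000 detected genes were left out, which kept 119 E10.5 cells, 158 E12.5 cells and 200 E15.5 cells. Median counts per kept cell were 272198, 250710 and 192228 in that order. The libraries form 12 pools of 40 by the index in the labels, with E10.5 cells in pools 1 to 3, E12.5 cells in pools 4 to 7 and E15.5 cells in pools 8 to 12, and the pools are technical divisions of 1 sample. The hind limb label did not hold at E10.5. Tbx5, a forelimb factor, was at 67.9 CPM in E10.5 cells, 0.739 CPM in E12.5 cells and 6.32 CPM in E15.5 cells, where CPM is the gene's share of all counts scaled to 1e6, and Pitx1, a hind limb factor, was at 0, 169 and 68.7 CPM. A difference between E10.5 and a later stage therefore cannot be told apart from a difference between kinds of limb, litters or pools.

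The stretches before the starts of Myog and Vgll2 are shown because these genes were found together in single cells, as described below, and because the muscle basic helix-loop-helix factors among the 8 bind DNA at the letters CANNTG. The sequences are from RefSeq on build GRCm38.p6, which matched 5 of the 8 genes (Pax7, Myf5, Myog, Met and Vgll2). The starts are those of RefSeq, which for Myog differs by some bases from the gene span given below. Each stretch is 250 bases, on the + strand, and capitals mark CANNTG, which reads the same on both strands.
Myog, chr1:134289754-134290003: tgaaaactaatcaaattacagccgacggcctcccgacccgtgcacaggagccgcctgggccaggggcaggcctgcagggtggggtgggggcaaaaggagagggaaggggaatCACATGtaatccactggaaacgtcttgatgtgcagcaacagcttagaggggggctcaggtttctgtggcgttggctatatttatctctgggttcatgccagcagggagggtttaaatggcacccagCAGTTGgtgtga
Vgll2, chr10:52022252-52022501: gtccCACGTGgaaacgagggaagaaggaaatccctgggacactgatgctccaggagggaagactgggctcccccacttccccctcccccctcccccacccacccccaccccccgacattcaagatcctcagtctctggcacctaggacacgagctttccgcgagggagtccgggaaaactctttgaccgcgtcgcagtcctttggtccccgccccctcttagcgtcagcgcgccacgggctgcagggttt
CANNTG occurred 2 times before the RefSeq start of Myog, as CACATG starting 138 bases and CAGTTG starting 12 bases before it. By the gene span of Myog given below, the CAGTTG lies inside the gene. CANNTG occurred 1 time before Vgll2, as CACGTG starting 246 bases before the gene, and the 2 Myog matches did not overlap. Pax7 shared 7 cells with Vgll2, as many as Myog did, and its stretch is not shown. Of the stretches not shown, those of Pax7 and Myf5 held CANNTG 0 times and that of Met 1 time. These letters were found in 66.2% of 32851 windows of this length before mouse genes, so a match is a description of the window and not a binding site.

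Reads of these genes lay in few cells. Over the 8 genes, 9324 counts were found in 263 pairs of a cell and a gene. A cell was taken as above the read-spread limit for a gene when it held at least 3 counts and over 0.5% of its pool's counts of the gene, and 118 pairs passed. These 118 pairs held 98.1% of the counts, 95 of them with 10 or more counts and 23 with 3 to 9. Of the 145 pairs that did not pass, 117 had 1 count and 28 had 2. The limit itself largely sets this range, since a pair with 3 or more counts fails only in pools with many counts of the gene. A single count was not scattered evenly over the pools. Where a pool had a cell above the limit for the gene, 134 of its 2106 other cell and gene pairs held a read (6.36%), and in pools with no such cell 11 of 1592 did (0.691%). These shares join genes and stages, and the pools with no such cell include E10.5 pools without any count of Pax7, Myod1 or Vgll2. Taken singly, Myf5 went the other way (0 of 39 against 3 of 437). Pax3 was at 9.51% against 3.00%, and the other genes were also higher in pools with such a cell. In 22 cases 1 cell held 100 or more counts of a gene. In 20 of them other cells of the pool, not above the limit, held 1 or 2 counts, in at most 9 cells per case. The same was seen at a higher level for Actc1, an actin of early muscle: in pool 7, E12.5 cell 147 held 8879 of 9108 counts and 37 of the other 39 cells had reads, with at most 42 counts. Cells are numbered here within their stage. A low read is therefore not counted below as a cell with the gene, and what produced such reads was not tested.

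**Figure D1:**
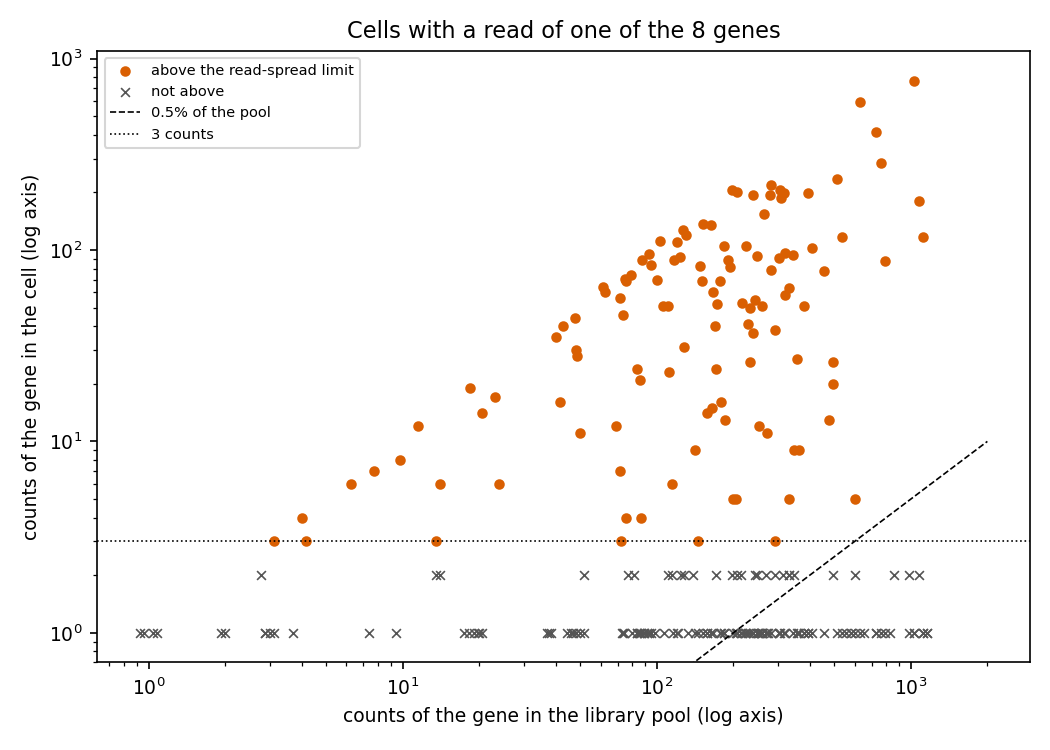
Counts of a gene in a cell (vertical, log axis) against the counts of that gene in the cell's library pool (horizontal, log axis) for the 263 pairs with a read, shifted slightly sideways to separate points. The 118 pairs above the limit of 3 counts and 0.5% of the pool (circles) held up to 763 counts, and the 145 others (crosses) held 1 or 2.

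Pax3, the transcription factor of migrating progenitors (chr1:78101267-78197134, - strand, mm10), was read mostly in the earliest cells. It was at 63.8, 6.81 and 24.9 CPM in the 3 pools of E10.5, at 0, 0.358, 0.345 and 1.32 CPM in the 4 pools of E12.5, and at 0.0887, 0.371, 0, 2.55 and 26.4 CPM in the 5 pools of E15.5. Every pool of E12.5 lay below every pool of E10.5, whereas pool 12 of E15.5 lay among those of E10.5. Over the stage the level was 0.565 CPM at E12.5 (95% Poisson interval 0.369 to 0.828) against 32.9 CPM at E10.5 (31.0 to 34.9), and at E15.5 it was 6.84 CPM (6.11 to 7.64). Above the limit were 8 of 119 E10.5 cells (6.72%, exact binomial interval 2.95 to 12.8%), 2 of 158 E12.5 cells (1.27%, 0.154 to 4.50%) and 4 of 200 E15.5 cells (2.00%, 0.548 to 5.04%).

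Met, the growth factor receptor (chr6:17463800-17573980, + strand), was found above the limit at all 3 stages. It was at 39.8, 23.0 and 39.5 CPM in the E10.5 pools, at 9.56, 13.8, 0 and 41.9 CPM in the E12.5 pools, and at 0.799, 9.64, 6.13, 11.9 and 11.6 CPM in the E15.5 pools. All E15.5 pools lay below all E10.5 pools, while the highest E12.5 pool was above every E10.5 pool. That highest pool rested on 1 cell, since E12.5 cell 133 held 68.0% of the stage's 871 counts. Summed over the stage, E10.5 had 33.8 CPM (31.9 to 35.9), E12.5 had 18.9 CPM (17.7 to 20.2) and E15.5 had 7.73 CPM (6.95 to 8.58). Above the limit were 15 E10.5 cells (12.6%, 7.23 to 19.9%), 7 E12.5 cells (4.43%, 1.80 to 8.92%) and 9 E15.5 cells (4.50%, 2.08 to 8.37%).

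Pax7, the factor of the later progenitors (chr4:139737062-139833528, - strand), had 0 counts at E10.5. In the E12.5 pools it was at 0, 10.8, 0 and 12.3 CPM, and in the E15.5 pools at 6.12, 8.28, 1.53, 0 and 0.363 CPM. The pools of E12.5 and E15.5 overlapped. It was above the limit in 0 of 119 E10.5 cells, for which the exact interval reaches 3.05%. It was above in 3 E12.5 cells (1.90%, 0.393 to 5.45%) and 6 E15.5 cells (3.00%, 1.11 to 6.42%). The highest E12.5 cells held 120 and 135 counts, and the highest E15.5 cells 56 and 64.

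Myf5, the earliest of the muscle determination factors (chr10:107482908-107486134, - strand), was close to absent from the table, with 6 counts in 4 cells. Of these, 0 were from E10.5, 1 from E12.5 and 5 from E15.5, and with a count in fewer than 10 cells it entered no comparison. E15.5 cell 3 held 3 of these counts and was the only cell above the limit. The level that 3 counts stand for was 0.0889 CPM for the E10.5 cells and 0.0652 CPM for either later stage, so the values cannot be ordered at this depth.

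Myod1, the second determination factor (chr7:46376474-46379099, + strand), had 0 counts at E10.5. It was at 0, 6.27, 0 and 17.5 CPM in the E12.5 pools and at 7.81, 14.2, 5.24, 14.2 and 16.3 CPM in the E15.5 pools. Every pool of E15.5 had a cell above the limit, while pools 4 and 6 of E12.5 had no count. Above the limit were 5 E12.5 cells (3.16%, 1.04 to 7.23%) and 11 E15.5 cells (5.50%, 2.78 to 9.63%). The highest E12.5 cell held 155 of 323 counts (48.0%), and the highest E15.5 cell 110 of 534 (20.6%).

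Myog, the differentiation factor (chr1:134289989-134292548, + strand), had 1 count at E10.5. It was at 0, 10.0, 0 and 6.72 CPM in the E12.5 pools and at 18.3, 36.5, 0, 1.02 and 2.09 CPM in the E15.5 pools. Both later stages had pools with no count, so their pools overlapped those of E10.5. Above the limit were 2 E12.5 cells (1.27%, 0.154 to 4.50%), with 111 and 95 counts, and 7 E15.5 cells (3.50%, 1.42 to 7.08%). At E15.5 the counts ranged widely, with 202, 188 and 96 in the highest 3 cells and 17, 11, 7 and 6 in the other 4.

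Msc, the repressor (chr1:14753346-14755992, - strand), had 1 count at E10.5 and counts in every later pool. It was at 3.76, 17.8, 14.6 and 11.4 CPM in the E12.5 pools and at 95.1, 4.57, 20.2, 1.66 and 19.4 CPM in the E15.5 pools. The E15.5 pools lay on both sides of the E12.5 pools, and pool 8 was high through cell 3, which held 763 of the stage's 1494 counts (51.1%). Above the limit were 7 E12.5 cells (4.43%, 1.80 to 8.92%) and 11 E15.5 cells (5.50%, 2.78 to 9.63%).

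Vgll2, the TEAD cofactor (chr10:52022502-52028471, + strand), had 0 counts at E10.5 and counts in every later pool. It was at 5.12, 23.3, 10.47 and 15.0 CPM in the E12.5 pools and at 29.3, 41.0, 0.766, 5.74 and 7.18 CPM in the E15.5 pools. The E12.5 pools all fell within the range of the E15.5 pools. Above the limit were 8 E12.5 cells (5.06%, 2.21 to 9.73%) and 12 E15.5 cells (6.00%, 3.14 to 10.2%), the highest with 219 and 206 counts.

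**Figure D2:**
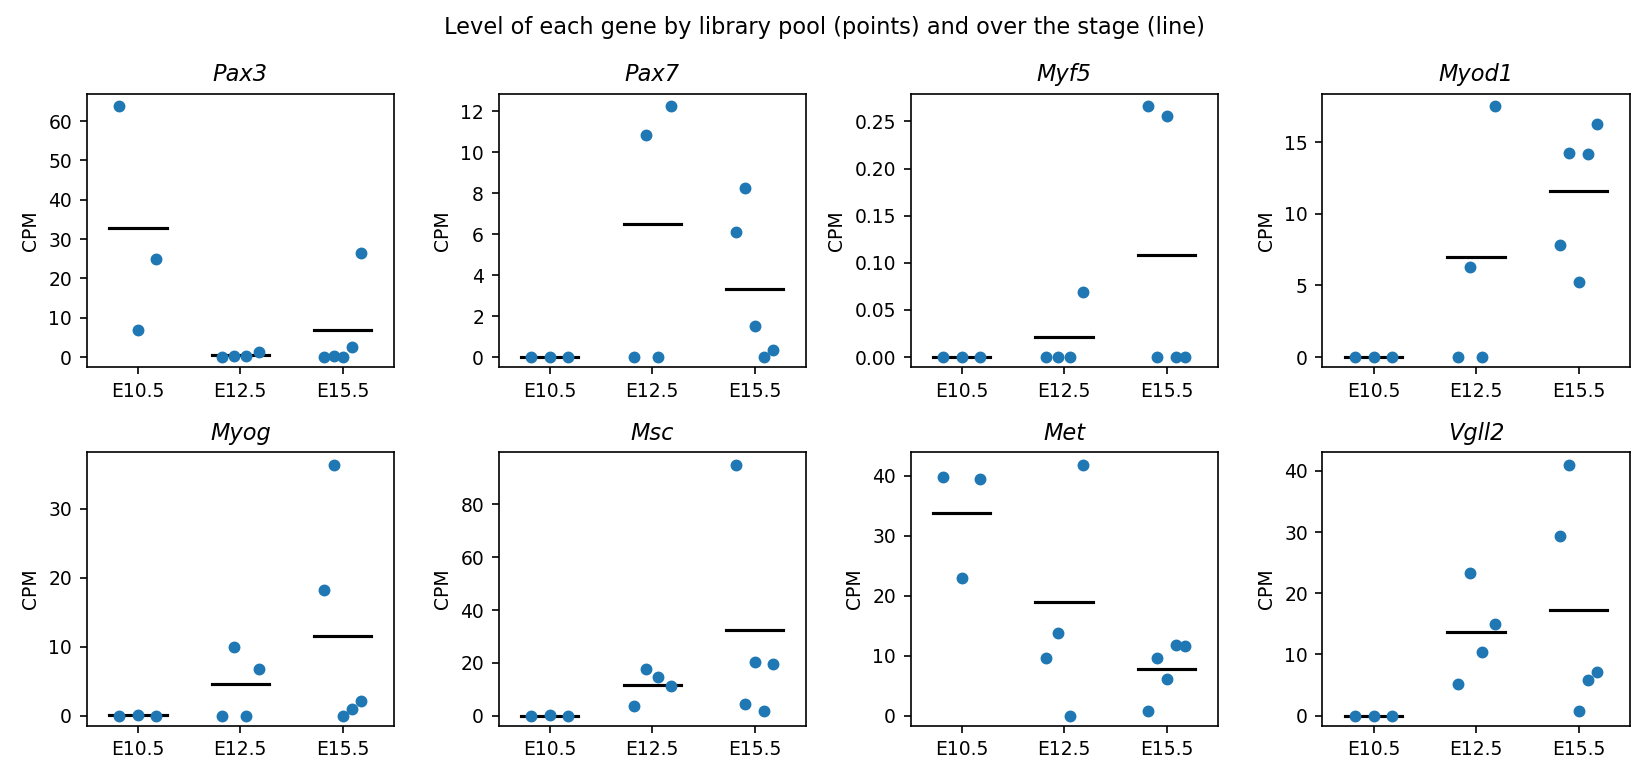
CPM of each of the 8 genes (vertical, own scale per gene, linear) in each library pool (points) and over all kept cells of the stage (line), with 3 E10.5 pools, 4 E12.5 pools and 5 E15.5 pools. Pax3 and Met have their E10.5 points at or above most later ones, and Pax7, Myod1, Msc and Vgll2 have all E10.5 points at 0 or at most 0.0851 CPM.

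With 1 sample per stage, a gene was called by size: its log2 ratio of CPM + 5 was at least 1 in size and the pools of the 2 stages did not overlap. Of the 8 genes, 7 had a count in at least 10 kept cells, as had 13125 genes in all. At E12.5 against E10.5, Msc and Vgll2 were called higher, set against 7.76% of all genes, and Pax3 was called lower, set against 2.83%. The log2 ratio was 1.72 for Msc, 1.90 for Vgll2 and -2.77 for Pax3. In CPM, Vgll2 was at least 153-fold higher at E12.5, taking 3 counts over the stage as the floor at E10.5, and Msc was 392-fold higher with a counting interval of 70.0 to 15497, since E10.5 had 1 count. With 1 pool left out the bound for Vgll2 was 96.8 to 186, and without pool 2, which held the 1 count, Msc was at least 85.1-fold higher. Pax3 was 58.3-fold lower at E12.5, and leaving out pool 1 made this 26.4-fold, leaving out pool 7 148-fold. Pax7 (log2 ratio 1.20) and Myod1 (1.27) were not called, since 2 E12.5 pools had no count of either. Met had a log2 ratio of -0.70. The call of Met turns on E12.5 cell 133: without pool 7, which holds it, Met was called lower with a log2 ratio of -1.53. The median log2 ratio was 1.20 over the 7 genes and 0.17 over all genes tested.

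At E15.5 against E12.5 none of the 7 genes was called in either direction, where 4.62% of all genes were called (2.99% higher and 1.63% lower). The log2 ratios were 1.09 for Pax3, 1.17 for Msc, 0.79 for Myog, 0.47 for Myod1, 0.25 for Vgll2, -0.47 for Pax7 and -0.91 for Met. The pools of the 2 stages overlapped for each of them. The direction of Met depended on how cells were weighted, since the mean of CPM per cell gave it a log2 ratio of 0.64. Pax3 and Msc passed the size alone, and each owed most of its E15.5 counts to 1 cell or pool.

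At E15.5 against E10.5, Myod1, Msc and Vgll2 were called higher, set against 11.2% of all genes, and Met was called lower, set against 5.01%. The log2 ratio was 1.73 for Myod1, 2.90 for Msc, 2.15 for Vgll2 and -1.61 for Met. In CPM, Myod1 was at least 130.5-fold and Vgll2 at least 194-fold higher at E15.5, and Met was 4.38-fold lower. With 1 pool left out these bounds were 82.4 to 145 for Myod1 and 122 to 231 for Vgll2. The call of Met was lost with the mean of CPM per cell, where its log2 ratio was -0.88. Pax3 had a log2 ratio of -1.68 and was not called because of pool 12, without which it was called lower, with a log2 ratio of -2.74. Myog had a log2 ratio of 1.72 and was not called because pool 10 had no count, and without that pool it was called higher, with 1.91. When every pool was stripped of its highest cell for the gene, Msc alone was called higher between these stages, and no gene was called higher at E12.5 against E10.5. Myod1 and Vgll2 then had log2 ratios of 0.79 and 1.15 at E15.5 against E10.5.

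**Figure D3:**
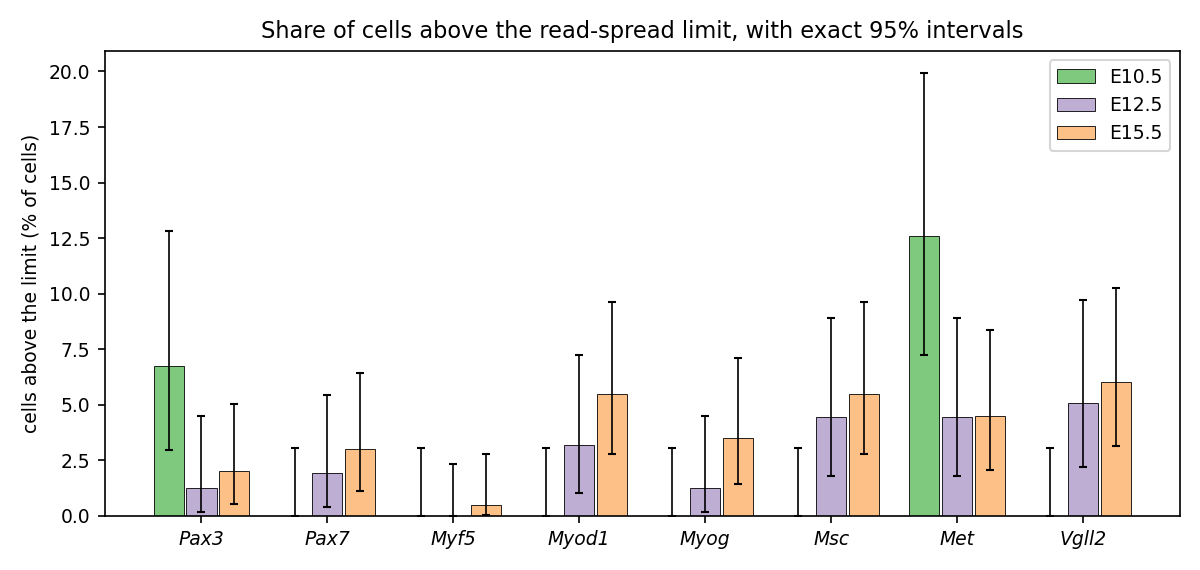
Share of kept cells above the read-spread limit for each gene (vertical, percent, bars from 0) for 119 E10.5, 158 E12.5 and 200 E15.5 cells, with exact 95% binomial intervals as error bars. Met at E10.5 has the highest bar at 12.6%, and 6 of the 8 genes have a bar of 0 at E10.5.

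Counted by cell, 16 of 119 E10.5 cells were above the limit for at least 1 of the 8 genes (13.4%, 7.88 to 20.9%), as were 15 of 158 E12.5 cells (9.49%, 5.41 to 15.2%) and 28 of 200 E15.5 cells (14.0%, 9.51 to 19.6%). The 3 intervals overlapped. No E10.5 cell was above for Pax7, Myf5, Myod1 or Myog (0 of 119, with an interval that reaches 3.05%). Such cells numbered 7 among the E12.5 cells (4.43%, 1.80 to 8.92%) and 13 among the E15.5 cells (6.50%, 3.51 to 10.9%). With 1 sample per stage, the difference between stages was not tested. At least 2 of these 4 genes were above the limit in 3 E12.5 cells and 9 E15.5 cells. At least 3 of all 8 genes were above in 0, 6 and 10 cells at the 3 stages. Cells above for a member did not have more counts than the others at E10.5 (medians 267727 and 276778), but E12.5 cells did (390502 and 240151), and so did E15.5 cells (219886 and 190614).

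**Figure D4:**
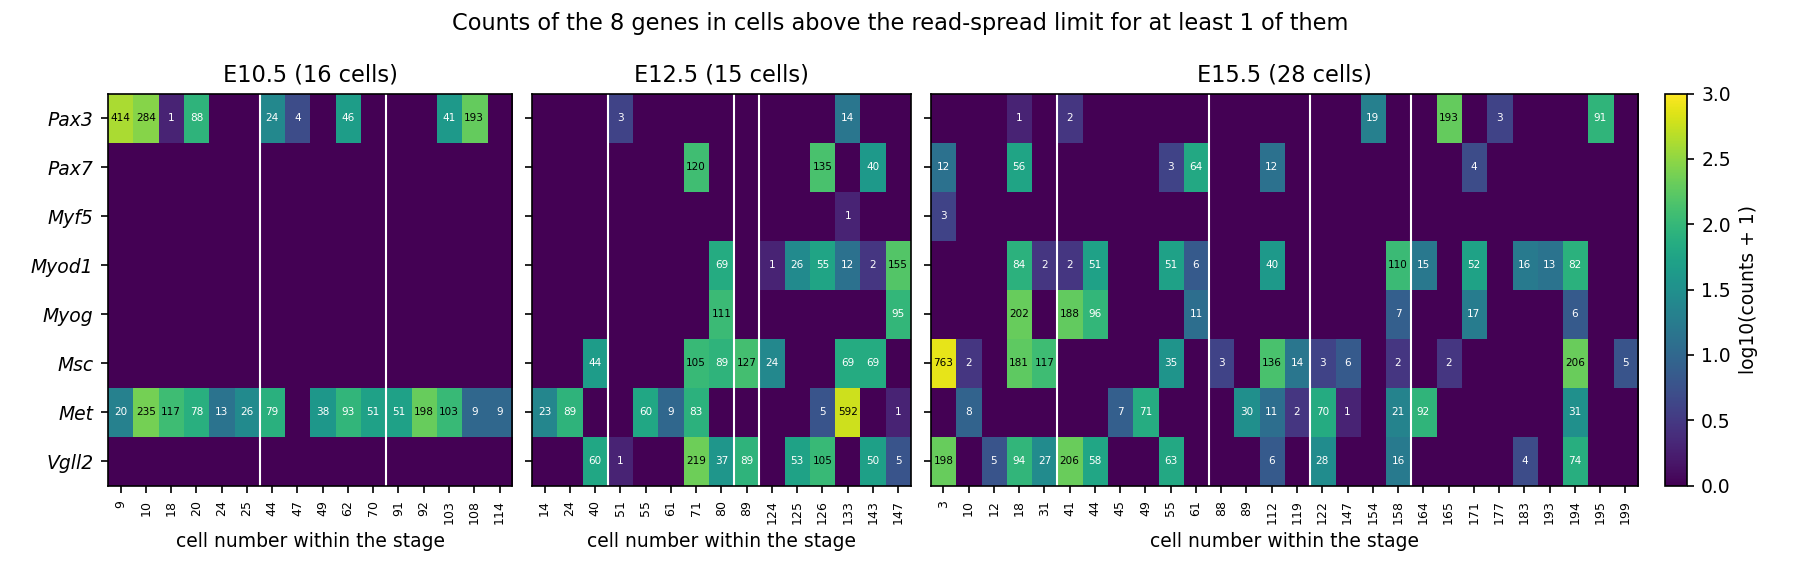
Counts of the 8 genes (rows) in the 59 cells above the read-spread limit for at least 1 of them (columns, with the cell number within the stage, white lines between pools), as log10(counts + 1) by colour and as numbers. At E10.5 the counts lie in the Pax3 and Met rows, and at E12.5 and E15.5 many cells have counts in several of the Pax7, Myod1, Myog, Msc and Vgll2 rows.

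The E10.5 cells held Pax3 and Met. Of the 8 Pax3 cells, 7 were also above for Met (87.5%), while 7 of the 15 Met cells were above for Pax3 (46.7%). Cell 9 had 414 Pax3 counts and 20 Met counts, cell 10 had 284 and 235, and cell 108 had 193 and 9. Cell 20 had 88 and 78, cell 62 had 46 and 93, cell 103 had 41 and 103, and cell 44 had 24 and 79. The balance of the 2 genes thus varied widely among the 7 cells. The Pax3 cell without Met, cell 47, had 4 Pax3 counts. Lbx1, a homeobox factor of migrating limb muscle progenitors, had 0 counts in every cell of the 3 stages, as did Myf6, a late myogenic factor, and Tcf21, a factor of head muscle progenitors.

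Other genes of these E10.5 Pax3 cells came from the list of myogenic regulator relatives. Meox1, a somite homeobox gene, was above the limit in 4 of the 8 Pax3 cells against 3 of the 103 E10.5 cells above for no member. Eya1, a transcriptional cofactor with phosphatase activity, was above in 3 of 8 against 4 of 103. Mki67, a marker of proliferating cells, was above in 8 of 8 Pax3 cells and in 85 of the 103 others. Of 29 muscle differentiation genes, a median of 2 was above the limit in the Pax3 cells and a median of 2 in the 103 others. Of 13 limb mesenchyme markers, a median of 4 was above in the Pax3 cells and a median of 5 in the 103 others. Some of the E10.5 cells carried markers of another cell type. Cell 62 was above for 6 of 9 endothelial markers and held 118 counts of Cdh5, the endothelial cadherin. Met cell 18, which had 117 Met counts, was above for 6 of 13 epithelial markers and held 133 counts of Epcam. The other 14 of these 16 cells were above for at most 1 marker of each of these lists. Doublets were not called, and their part in such cells was not tested.

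At E12.5 the cells fell into small sets. Cells 71, 126 and 143 were above for Pax7, with 120, 135 and 40 counts, and all 3 were above for Vgll2, with 219, 105 and 50 counts. Cell 71 added 105 Msc and 83 Met counts, cell 126 added 55 Myod1 and 5 Met counts, and cell 143 added 69 Msc counts. None of the 3 was above for Myog. The Myog cells, 80 and 147, were both above for Myod1, with 69 and 155 counts, and for Vgll2, with 37 and 5 counts. Cell 133 combined its high Met with 69 Msc, 14 Pax3 and 12 Myod1 counts, and was the only cell of any stage above for Pax3 together with Myod1 or Msc. Cell 125 was above for Myod1 and Vgll2, cells 40 and 89 for Msc and Vgll2, cell 124 for Msc alone, and cell 51 for Pax3 alone with 3 counts and 8 of 9 endothelial markers. The 7 E12.5 cells above for Pax7, Myod1 or Myog were above for 0 to 10 of 13 limb mesenchyme markers. Cells 125 and 133 were highest, at 10 and 8, and the 143 E12.5 cells above for no member had a median of 6. Of the 4 cells above for Met alone, cell 55 was above for 10 of 13 epithelial markers, with 1032 counts of Krt14, and cell 24 for 4, with 514.

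At E15.5 there were 18 combinations in 28 cells, and at E12.5 there were 11 in 15. Cell 18 was above for 5 genes, with 56 Pax7, 84 Myod1, 202 Myog, 181 Msc and 94 Vgll2 counts. Cell 112 was above for 5 with Pax7 (12 counts), Myod1 (40), Msc (136), Met (11) and Vgll2 (6), and cell 194 for 5 with Myod1 (82), Myog (6), Msc (206), Met (31) and Vgll2 (74). Cells 61 and 171 were above for Pax7, Myod1 and Myog, with 64, 6 and 11 counts in cell 61 and 4, 52 and 17 in cell 171. Cell 55 was above for Pax7 (3), Myod1 (51), Msc (35) and Vgll2 (63). Cell 3 was above for Pax7 (12), Myf5 (3), Msc (763) and Vgll2 (198), with 0 counts of Myod1 and Myog. Of the 7 Myog cells, 6 were above for Myod1, and the exception, cell 41, held 188 Myog, 206 Vgll2 and 2 Myod1 counts. Thus 3 of the 6 Pax7 cells were above for Myog, whereas 0 of the 3 at E12.5 were. With these numbers the shares (50.0% and 0%) were not tested.

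Over all cells, Myod1, Myog, Msc and Vgll2 often shared cells. Myod1 and Myog were above together in 8 cells, which are 50.0% of the 16 Myod1 cells and 88.9% of the 9 Myog cells. Msc and Vgll2 were above together in 12 cells, 66.7% of the 18 Msc cells and 60.0% of the 20 Vgll2 cells, and Myod1 and Vgll2 in 11 cells, 68.8% of the Myod1 cells and 55.0% of the Vgll2 cells. Pax7 shared 7 of its 9 cells with Vgll2 (77.8%), 6 with Myod1 (66.7%) and 3 with Myog (33.3%). Pax3 shared no cell with Pax7, Myog or Vgll2 and 1 of its 14 cells with Myod1. In 10 cells Msc or Vgll2 was above with none of Pax7, Myf5, Myod1 and Myog, and in 4 E15.5 cells at least 1 of those 4 was above with neither Msc nor Vgll2. The 10 cells had a median of 3.5 of 29 muscle differentiation genes and 6.5 of 13 limb mesenchyme markers above. The 315 E12.5 and E15.5 cells above for no member had medians of 2 and 6. Among the 10, E15.5 cell 12 held 5 Vgll2 counts and was above for 8 of 8 cartilage markers.

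The Myog cells were above the limit for more genes of muscle fibres than the cells above for no member. Over E12.5 and E15.5, a median of 12 of the 29 muscle differentiation genes was above the limit in the 9 Myog cells (range 7 to 28), against 2 in the 315 cells above for no member (range 0 to 6). The 6 cells above for Pax7 and not Myog had a median of 7.5 (range 5 to 9), and the 8 above for Myod1 and not Myog a median of 6 (range 2 to 9). Actc1 was above in 8 of 9 Myog cells against 4 of 315 others, Tnnt1, a troponin of slow fibres, in 9 of 9 against 20 of 315, and Neb, nebulin of the thin filament, in 8 of 9 against 7 of 315. Ttn, the titin gene, and Rbm24, a muscle splicing factor, were each above in 7 of 9 against 2 of 315. Cdh15, M-cadherin of muscle cells, was above in 7 of 9 Myog cells and in 5 of 6 cells with Pax7 and no Myog, against 6 of 315. E12.5 cell 147 stood apart, with 28 of 29 genes above the limit and 9.35% of its counts in them, whereas the other Myog cells had 0.328 to 2.12%. Chrna1, an acetylcholine receptor subunit, and Klhl41 are of little use in these libraries as muscle markers, since they were above the limit in 56.2% and 79.2% of all 477 cells. Without these 2 genes the median over Myog cells was 11 of 27, against 1 or 0 in cells above for none of the 8 genes at each stage.

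**Figure D5:**
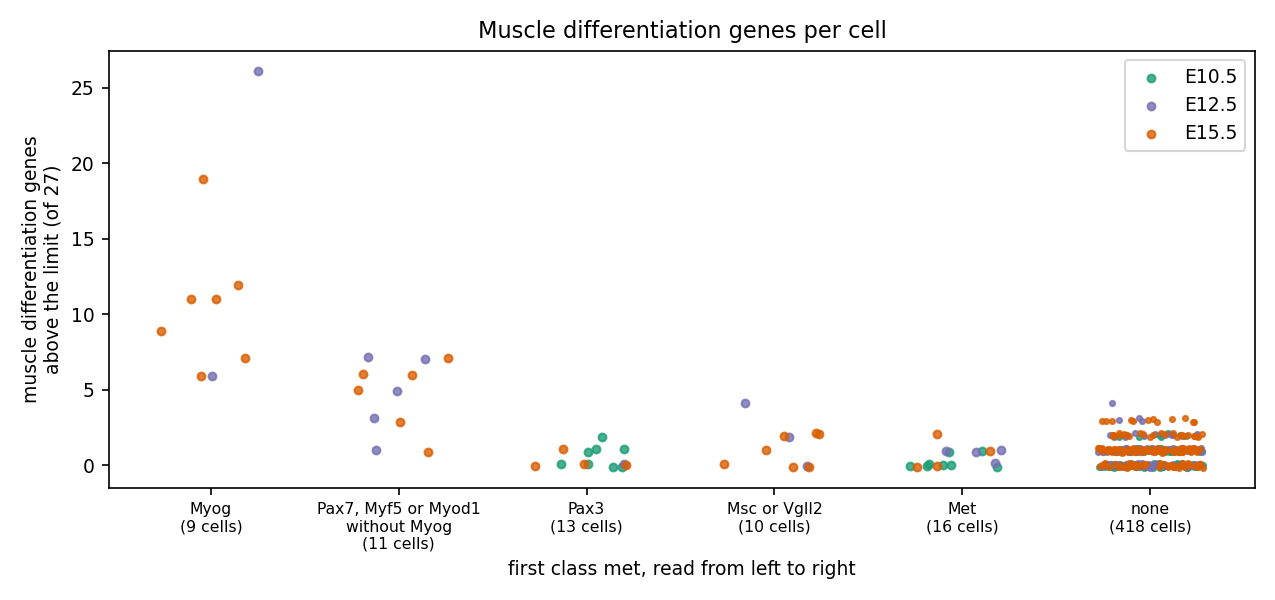
Number of 27 muscle differentiation genes (without Chrna1 and Klhl41) above the read-spread limit in each of 477 cells (vertical), by the first class of regulator that the cell met (horizontal), coloured by stage, with points shifted slightly to separate them. The 9 Myog cells lie between 6 and 26, the 11 cells with Pax7, Myf5 or Myod1 and no Myog between 1 and 7, and the 418 cells above for none of the 8 genes between 0 and 4.

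Cell cycle genes were read in both kinds of cell. Mki67 was above the limit in 3 of 9 Myog cells, in 4 of 6 cells with Pax7 and no Myog and in 160 of the 315 others, and these shares were not tested. Cdkn1a, the cell cycle inhibitor p21, was above in 6 of 9 Myog cells and in none of the 6 Pax7 cells without Myog, against 33 of 315. Cdkn1c, the inhibitor p57, was above in 9 of 9 and 6 of 6, but also in 239 of 315 others. Cell 147, with the most muscle genes, held 4012 counts of Cdkn1c, 348 of Cdkn1a, 6 of Mki67 and 12 of Top2a. Myog cell 80 of the same stage held 268, 32, 185 and 966 counts of these 4 genes, so both Myog and cell cycle genes were high in 1 cell.

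Hes6, which opposes the Notch target Hes1, was above the limit in 5 of the 6 cells with Pax7 and no Myog, in 6 of 9 Myog cells and in 51 of 315 others. Of all 14 Notch pathway genes, a median of 3.5, 4 and 2 was above in these groups, in that order. The tendon factor Scx was above in 7 of 8 cells with Myod1 and no Myog, in 4 of 9 Myog cells and in 101 of 315 others. The tendon list as a whole did not separate these groups. Of its 6 genes, a median of 1 was above in each group. The highest number was 2 in the cells with Myod1 and no Myog and 6 in the 315 others. These values rest on few cells with the muscle factors and no test was made.

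At E15.5 the 4 Pax3 cells shared no cell with any of the other 7 genes, and 3 of them were above for several crest markers. Cell 165 held 193 Pax3 counts, cell 195 held 91, cell 154 held 19 and cell 177 held 3. Of 12 markers of neural crest, Schwann cells and melanoblasts, cells 165, 195 and 154 were above for 6, 7 and 4, and the 172 E15.5 cells above for no member had a median of 0 and a highest value of 6. Cell 177, with the fewest Pax3 counts, was above for 1 crest marker and for 9 of 13 limb mesenchyme markers. Cell 195 held 243 counts of Sox10, a factor of crest-derived glia and melanoblasts. Ednrb, the endothelin receptor of melanoblasts, was above in 3 of the 4 Pax3 cells against 12 of 172. Cell 165 was also above for 7 of 13 epithelial markers and held 387 counts of Krt14. The list median of muscle differentiation genes was 1.5 of 29 in these 4 cells. Cells 165 and 195 are both in pool 12, so the 26.4 CPM of Pax3 there came mainly from cells that were above for crest markers. At E10.5 the Pax3 cells were above for at most 1 of the 12 crest markers, and the 103 cells above for no member for at most 2. Over all E10.5 cells Sox10 and Dct had 0 counts and Mitf had 2. The low number therefore does not set the Pax3 cells apart from other E10.5 cells. Erbb3, a crest and Schwann cell receptor, had 1 count in all 477 cells, so it marked no cell at any stage.

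Met cells without the muscle factors also differed among themselves. Of the 16 cells above for Met that were above for none of the other 7 genes, 4 were above for at least 4 of 13 epithelial markers. E15.5 cell 49, with 71 Met counts, was above for 7 epithelial and 5 crest markers and held 261 counts of Sox10 and 146 of Epcam. Among the Myog cells, E15.5 cells 41 and 158 were above for 4 and 5 epithelial markers, with 368 and 66 counts of Krt14. Krt14 was read in 160 of 200 cells at E15.5 and was above the limit in 29 of them, so a low Krt14 count there carries no weight. Leaving out all cells with at least 4 epithelial or endothelial markers above the limit, which was chosen after seeing the data, kept 14, 12 and 24 cells above for a member at the 3 stages, and kept 3 E12.5 cells and 8 E15.5 cells with at least 2 of Pax7, Myf5, Myod1 and Myog.

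The genes most like each regulator in the cells where they were above the limit were ranked by the Jaccard index, the cells above for both divided by the cells above for either, over 477 cells and 8671 genes. They share cells, library and depth, and the index is a description. For Myog the highest were Arpp21, a cyclic AMP-regulated phosphoprotein (0.58), Atp2a1, the calcium pump of fast fibres (0.57), Smyd1, a muscle methyltransferase (0.56), Actc1 (0.47) and Myod1 (0.47). For Myod1 they were Myog (0.47), Arpp21 (0.44), Vgll2 (0.44), Des, the desmin gene (0.40), and Actc1 (0.39). For Vgll2 they were Fgfr4, a fibroblast growth factor receptor (0.48), Msc (0.46), Actc1 (0.44), Myod1 (0.44) and Rbm24 (0.43). For Msc they included Vgll2 (0.46), Ank1 (0.29), Pax7 (0.29) and Lfng, a modifier of Notch receptors (0.27). For Pax7 they were Vgll2 (0.32), Myod1 (0.32), Cdh15 (0.30), Fgfr4 (0.30) and Atp2a1 (0.29). The index was lower for the 2 early genes. For Pax3 the highest were Met (0.22), Shc4 (0.17), Plcg2 (0.15), Ednrb (0.14) and Plch1 (0.14), and for Met they included Pax3 (0.22), Eya1 (0.19), Des (0.16) and Npm3 (0.16). Myf5 had too few cells.

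The other genes of these pathways were read mostly in cells other than the muscle cells, so their stage levels describe the limb as a whole. Of 24 myogenic regulator relatives, 18 were tested, of which 7 were called higher and 0 lower at E12.5 against E10.5, set against 7.76% and 2.83% of all genes. Mef2c, a cofactor of the myogenic factors, had 101 CPM in E12.5 cells and 10.9 CPM in E10.5 cells. At E15.5 against E12.5, 0 were called higher and 3 lower, set against 2.99% and 1.63% of all genes, and those lower were all inhibitors of basic helix-loop-helix factors: Id1 was at 122 CPM at E15.5 and 508 CPM at E12.5, Id2 at 157 CPM and 372 CPM, and Id3 at 422 CPM and 934 CPM. At E15.5 against E10.5, 5 were called higher and 0 lower, set against 11.2% and 5.01%.

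Of 29 muscle differentiation genes, 26 were tested. At E12.5 against E10.5, 1 was called higher (Ncam1, set against 7.76% of all genes) and 1 lower (Chrna1, against 2.83%), at a median log2 ratio of 3.09 against 0.17 over all genes. At E15.5 against E12.5 none was called, at a median of -0.62 against -0.04. At E15.5 against E10.5, 3 were called higher (Acta2, Tnnt1 and Ncam1, set against 11.2%) and 1 lower (Chrna1, against 5.01%), at a median of 1.15 against 0.15. Tnnt1 was at 47.5 CPM at E15.5 and 1.04 CPM at E10.5. In the first of these comparisons most of the level at E12.5 was in 1 cell, as for Actc1 above.

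For the next 3 lists, the share of all genes called higher was 7.76% at E12.5 against E10.5, 2.99% at E15.5 against E12.5 and 11.2% at E15.5 against E10.5. Of 12 HGF-MET pathway genes, 11 were tested and 1 was called higher at both later stages against E10.5 and none at E15.5 against E12.5. This was Gab1, the docking protein of Met, with 85.1 CPM in E15.5 cells, 68.9 CPM in E12.5 cells and 23.2 CPM in E10.5 cells. Hgf, the ligand of Met, was at 6.88, 1.76 and 2.37 CPM over the 3 stages and above the limit in 8, 4 and 2 cells. Of 14 Notch pathway genes, 13 were tested, with 0 called at E12.5 against E10.5, 1 called higher at E15.5 against E12.5 and 3 called higher at E15.5 against E10.5. Jag1, a Notch ligand, had 12.7 CPM in E10.5 cells, 12.8 CPM in E12.5 cells and 55.7 CPM in E15.5 cells. Of 9 YAP-TEAD and vestigial-like genes, 7 were tested, with 1, 1 and 3 called higher in the 3 comparisons and 0 lower. Vgll3, a relative of Vgll2, was at 0, 9.63 and 33.9 CPM over the 3 stages and was the one gene of the list called in all 3 comparisons.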

How the data were processed

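The deposited table held whole-number counts of reads per gene for 480 cells, made by the authors with Bowtie2 and featureCounts on mm10, per the submitters' processing notes. No label or header names the versions, the annotation or a use of molecular identifiers. A further 1120 samples were not analysed here. Python 3.11.15, numpy 2.4.6, pandas 2.3.3 and scipy 1.17.1 were used, and edgeR 4.0.16 for TMM factors only. The table has 22738 rows for 22092 symbols, since 298 symbols repeat, and of repeated rows identical ones were kept once and others summed, which touched none of the 8 genes.

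Cells with fewer than 1000 detected genes were left out (3 of 480). Counts of the kept cells were summed per stage and per library pool and divided by the total (CPM). Depth per stage was 33742559, 46009284 and 46035725 counts, and 2681 to 1185267 per cell. With 1 sample per stage no test was made. Genes with a count in at least 10 cells were called by size and by pools that did not overlap, with a pseudocount of 5 CPM. On simulated counts, 99 or 100 of 100 4-fold changes and all 100 8-fold changes were called per comparison, as were 3 of 15206, 2 of 15229 and 3 of 15206 unchanged genes. The changed genes were drawn from those at 20 CPM or more over all cells, and each simulated gene was spread over all cells. The 8 genes lay in few cells, so these rates do not carry over to them.

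The named genes are all 8 members, list genes called with at least 20 CPM (up to 6 per list and comparison), list genes counted within the cells of a combination, and the 5 genes most alike by Jaccard index. Some genes that meet this rule are not reported here. Genes that mark other cell types are named beside the cells they bear on. Members and lists were chosen with earlier results of these data known. Lists were matched by symbol, 3 of them by an older symbol (Klhl41 as Kbtbd10). Gene positions are from GENCODE M21 (mm10). Doublets were not called. Levels were not compared between genes, since the length that a read represents is not given.

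Alternatives tried were TMM factors, other pseudocounts and filters, each pool left out, the highest cell left out, other read limits and cells thinned to 50000 or 25000 counts.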

Additional observations from a re-analysis of the deposited data

Results flagged for a closer look

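The levels over the pools of a stage were searched for 1 pool far from the others, by a rule under which chance picks about 1 of 20 groups of normally distributed values, a rate that need not hold for levels set by 1 or 2 cells. Pax3 at E15.5 was at 26.4 CPM in pool 12, and the next pool was at 2.55 CPM. Msc at E15.5 was at 95.1 CPM in pool 8, and the next pool was at 20.2 CPM. Myf5 at E12.5 was at 0.0692 CPM in pool 7, and the other pools were at 0, which is 1 count. In pool 12 cells 165 and 195 held 193 and 91 of the Pax3 counts, and in pool 8 cell 3 held 763 of the Msc counts.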

How the results depend on the processing

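Over the alternatives run, no log2 ratio of a gene that was called changed direction. Of those not called, Met at E15.5 against E12.5 was at -0.91 as reported and 0.64 with the mean of CPM per cell, and Vgll2 at 0.25 as reported, -0.03 without pool 8 and -0.12 without pool 9. The number called lower at E12.5 against E10.5 was 1 in the analysis as reported and 2 (Pax3 and Met) with the mean of CPM per cell and when every pool was stripped of its highest cell for the gene, and leaving out 1 pool at a time gave 1 to 2. The number called lower at E15.5 against E10.5 was 1 (Met) as reported and 0 with the mean of CPM per cell, and 1 to 2 leaving out 1 pool at a time. With the highest cells stripped, 0 genes were called higher at E12.5 against E10.5, and 1 (Msc) at E15.5 against E10.5. Cells with any read of at least 1 gene numbered 47, 45 and 73 over the 3 stages in time order, against 16, 15 and 28 above the read-spread limit. Cells with at least 2 of Pax7, Myf5, Myod1 and Myog at E15.5 numbered 9 as reported and 2 when thinned to 25000 counts, where few counts of these genes are left. TMM factors, other pseudocounts, no filter on genes or cells, and read limits of 0.1%, 1% and 2% of the pool moved no number of called genes or of cells by over 1.5 times. No paired analysis was possible because each stage is 1 sample. Shares of a few cells have wide intervals, and for 0 cells at E10.5 the exact interval reaches 3.05% of cells.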
